A study of Mus musculus with 144 samples.

Results

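Vehicle-treated mouse primary hepatocytes were compared at 24 h and 8 h of culture in 16 RNA-Seq libraries out of a series of 36 groups with 4 libraries each. The libraries were chosen by treatment and time alone and comprised every dimethyl sulfoxide (DMSO) library at these times, 8 at 8 h and 8 at 24 h. The series exposed hepatocytes of 2 genotypes to DMSO or to 10 nM of the dioxin TCDD, which activates the aryl hydrocarbon receptor (AHR), and harvested them at 9 times. Each time held 4 libraries labelled WT (strain C57BL/6NCrl, wild-type) and 4 labelled PkmΔDRE (DRE-null), a line in which a dioxin response element in an intron of Pkm was deleted in the whole animal with CRISPR/Cas9. All donors were male mice aged 28 days. The cells attached to type I collagen in Williams E medium with serum and were then held in serum-free medium with insulin, transferrin and selenium, ascorbic acid and dexamethasone, which both times share. No label ties libraries to separate animals or cultures, so the p-values measure the spread between libraries, which may be technical.

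The hepatocyte secretes most plasma proteins and carries out gluconeogenesis, ammonia detoxification, bile acid synthesis and the oxidation of drugs. Much of this output is driven by a network of liver-enriched transcription factors such as HNF4A. Isolated hepatocytes on a stiff collagen-coated surface are known to lose part of this expression with time while cytoskeletal and matrix genes become more active.

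Levels are given as CPM (counts normalized to the size of the library), as the lowest, median and highest of 8 libraries, and changes as log2 fold changes of 24 h over 8 h from edgeR's quasi-likelihood test with the label as a covariate. A gene was called at a Benjamini-Hochberg adjusted p under 0.05 with a fold change of at least 1.5. Of 13614 genes tested, 4095 (30.1%) were called, 2590 higher (19%) and 1505 lower (11.1%) at 24 h. The CPM of the 2 times did not overlap for 935 genes (6.87%). The median log2 fold change over all genes tested was 0.22, and it was 0.10 with DESeq2's size factors, a shift of 0.12. That scaling also lowered the higher share of the calls from 63.2% to 51.9%, so a list's values are given beside the median of all genes. Under it 3445 of the 4095 calls were called the same way. The count of rises also rested on which libraries were present: without any 1 of the 8 h libraries other than PkmΔDRE replicate 2 it was 1332 to 1498, and without PkmΔDRE 24 h replicate 4 the falls numbered 2480.

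The libraries held between 16011765 and 30719161 counts on genes. Pkm, whose intron carries the deletion, was at 45.1, 62.3, 75.5 and 88.7 CPM in the WT libraries and 40.8, 50.7, 58.5 and 89.4 CPM in the PkmΔDRE libraries at 8 h. At 24 h the WT libraries held 33.8, 35.6, 88.8 and 185 CPM and the PkmΔDRE libraries 71.8, 114.05, 165 and 261 CPM. With TCDD at 24 h the WT libraries held 41.1 to 131.5 CPM and the PkmΔDRE libraries 282 to 465 CPM, so levels with the receptor's ligand were higher under the label that lacks the element. Exon counts do not read the intronic deletion itself, so whether the labels match the genotypes was not tested, and the groups are named by their labels. The vehicle change of Pkm, 0.96 (SE 0.35, adjusted p = 0.0422, edgeR quasi-likelihood), was past the threshold by little. The call was lost with the WT pairs described below summed (1.00, adjusted p = 0.0829) and in 12 of 16 refits with 1 library fewer, at values between 0.67 and 0.97, among them all 8 refits without an 8 h library, in which the reference library of the normalization changed as well.

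Library properties also differed between the times. The 10 most abundant genes held 19.7 to 21.8% of counts at 8 h and 12.7 to 14.9% at 24 h, and unmapped reads made up 7.36 to 13.5% and 5.30 to 7.15%. Reads mapped to several places made up 5.76 to 6.59% at 8 h and 4.60 to 5.69% at 24 h. None of these measures overlapped between the times. Each difference reached the smallest p of the exact two-sided permutation test within labels (0.000408, or 0.000952 adjusted over 7 measures). Some WT libraries were unusually alike. By a chi-square of their counts per degree of freedom, WT 8 h replicates 1 and 2 differed by 9.48 and replicates 3 and 4 by 10.5, against 56.7 to 74.5 for the other WT pairs at 8 h, and WT 24 h replicates 1 and 2 by 18.8 against 75.2 to 138.4. These differences exceed sampling noise, which does not show that the libraries come from separate animals or cultures. Each library was still counted as 1 replicate, and the p-values treat all as independent. With each of these 3 pairs summed to 1, an alternative chosen after seeing the data, 2391 genes were called, 895 higher and 1496 lower, the median of all genes was 0.02, and 26 counts of listed genes moved by over 1.5 times while 56 did not. PkmΔDRE 24 h replicate 4 correlated less with its own group (median r = 0.852) than with the 8 h libraries of its label (0.903), and replicate 1 did so by little (0.890 and 0.895). Without these 2 libraries 5877 genes were called, 3325 higher and 2552 lower, and the counts of each list without them are given below where one moved by at least 2 genes and over 1.5 times. With the unmapped share as a covariate 1035 genes were called, 433 higher and 602 lower, and 48 of the counts of listed genes that rose or fell moved by over 1.5 times while 34 did not. The part of these properties in the results was not tested, and time and unmapped share cannot be fully told apart because they do not overlap.

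**Figure D1:**
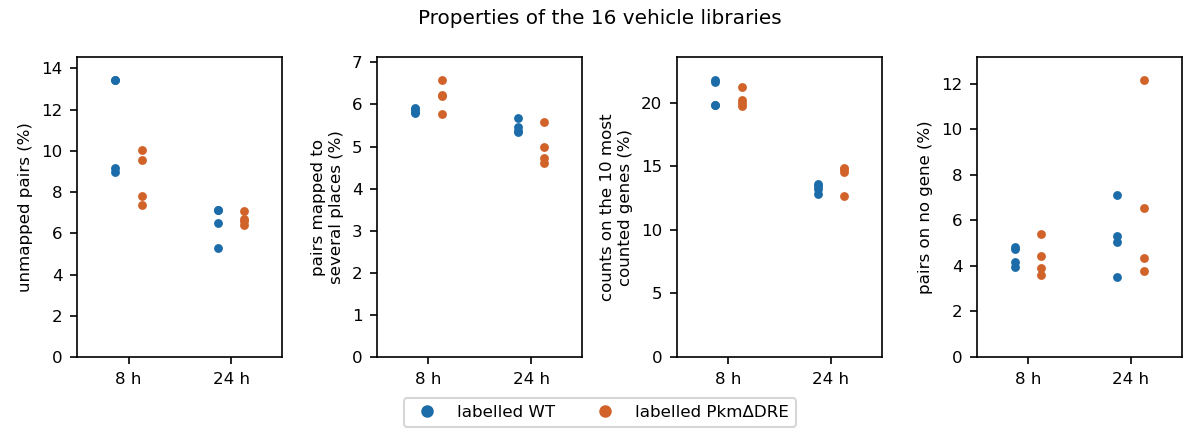
Properties of the 16 vehicle libraries at 8 h and 24 h, with 1 point per library, coloured by label. The percent of counts on the 10 most abundant genes and the percents of reads unmapped and mapped to several places were lower in all 8 libraries at 24 h than in any at 8 h.

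The secreted liver proteins fell. Of 24 plasma protein genes, 19 were lower at 24 h and 0 higher, with a median log2 fold change of -1.33, and 10 were lower with the unmapped share as a covariate. Albumin (Alb), the main protein of plasma, was at 60109.5, 66344 and 96344 CPM at 8 h and 18617, 24880.1 and 30607 CPM at 24 h, with no overlap (-1.41, SE 0.17, adjusted p = 9.39e-06). Ahsg, which encodes fetuin-A, an inhibitor of calcification, went from 3425, 4196 and 6796 to 663, 1048 and 1463 CPM, a 4.13-fold fall. Serpind1, which encodes the thrombin inhibitor heparin cofactor II, fell by 2.02 on the log2 scale. These are hepatocyte genes, and in bulk RNA fewer cells of a type and less RNA per cell cannot be told apart.

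Acute phase genes, which the liver induces in inflammation, were also mostly lower. Of 24 tested, 15 fell and 1 rose, with a median of -1.0, and 8 fell with the unmapped covariate. C-reactive protein (Crp) was at 391, 577 and 741 CPM at 8 h and 30.9, 83.1 and 111.6 CPM at 24 h, without overlap. Saa1, the best known inducible serum amyloid gene, spanned 407 to 4801 CPM at 8 h and 228 to 4967 CPM at 24 h and was not called (-0.55, adjusted p = 0.292). Its constitutively expressed relative Saa4 fell by 2.55.

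The liver-enriched transcription factors changed less than the genes above. Of 20 tested, 5 fell and 1 rose, with a median of -0.53. Without PkmΔDRE 24 h replicates 1 and 4, 10 fell and 3 rose, and with the unmapped covariate 2 fell and 0 rose. Hnf4a was at 802, 907 and 1215 CPM at 8 h and 376, 471 and 554 CPM at 24 h, so its libraries separated fully at a 1.90-fold lower level (-0.93, SE 0.14, adjusted p = 8.85e-05). Ppara, the receptor that drives fatty acid oxidation genes, fell from a median of 43.7 to 13.4 CPM.

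Genes of drug and bile acid metabolism fell. Of 21 genes of the cytochrome P450 system, 16 fell and 0 rose (median -1.63), and of 15 genes of bile acid synthesis and transport, 10 fell and 0 rose (median -1.48). Cyp2e1, which oxidises ethanol and other small molecules in pericentral hepatocytes, was at 1333, 2112 and 2583 CPM at 8 h and 115.4, 282 and 435 CPM at 24 h, a 6.66-fold fall. Cyp3a11, a main drug-oxidising enzyme, was at 351 to 778 CPM at 8 h and 45.05 to 536 CPM at 24 h, so the times overlapped although the gene was called (-1.52, SE 0.31, adjusted p = 0.00119). Cyp8b1, the sterol 12-alpha-hydroxylase that sets the cholic acid share, fell from 10.4, 13.4 and 23.3 to 0.175, 0.937 and 3.36 CPM. Slco1b2, an uptake transporter of the sinusoidal membrane, fell from a median of 14.7 to 1.10 CPM. Cyp7a1, the rate-limiting enzyme of the classical pathway, had 53 counts over the 8 libraries at 8 h and 8 at 24 h and was too low to test. Pericentral and Wnt target genes, a list that holds Cyp2e1 too, had 7 of 10 lower and 0 higher (median -1.86).

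The lowest median of any list belonged to amino acid breakdown, where 18 of 21 genes fell, 0 rose and the median was -2.31. Hal, which starts histidine breakdown, fell 16.1-fold and Sds, serine dehydratase, 16.4-fold. Tat, tyrosine aminotransferase and a classical glucocorticoid target, was at 696, 992 and 2696 CPM and then 43.1, 94.8 and 189 CPM. The libraries of Tat were fully separated. Those of Hal and Sds were too, but these genes were named as large falls among genes without overlap.

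Ammonia handling followed the same direction. Of 11 genes, 9 fell and 1 rose (median -1.51), and 9 also fell with the unmapped share as a covariate. Cps1, the first enzyme of the urea cycle, was at 1415, 1877 and 5270.2 CPM at 8 h and 205, 485 and 885 CPM at 24 h. Oat, the mitochondrial ornithine aminotransferase, fell by 2.77 on the log2 scale and Gls2, the liver glutaminase, by 2.31.

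Glucose output genes fell and glycolytic genes changed in both directions. Of 12 genes of gluconeogenesis and glucose output, 8 fell and 1 rose (median -1.52), and 8 also fell with the unmapped covariate. Pck1, the cytosolic carboxykinase at the entry of gluconeogenesis, was at 28.4, 73.01 and 113.7 CPM at 8 h and 2.68, 3.87 and 6.69 CPM at 24 h (-4.04, SE 0.27, adjusted p = 1.13e-08). G6pc, the phosphatase that releases free glucose, fell from 8.12, 12.5 and 20.8 to 0.367, 1.04 and 3.49 CPM. Of 19 glycolytic genes, 2 rose and 3 fell (median 0.00), or 1 and 6 without PkmΔDRE 24 h replicates 1 and 4 and 0 and 2 with the unmapped covariate. Hk2, a hexokinase low in adult hepatocytes, was at 0.162, 1.65 and 2.77 CPM and then 1.01, 8.65 and 20.9 CPM (2.48, SE 0.56, adjusted p = 0.00273).

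Lipid genes were mixed. Of 20 genes of fatty acid oxidation and PPAR alpha targets, 9 fell and 3 rose (median -0.28), or 5 and 0 with the unmapped covariate. Cpt1a, the carnitine transferase that admits long-chain fatty acids to mitochondria, rose, from 40.4, 78.6 and 106.6 to 88.8, 134.9 and 171 CPM (1.03, SE 0.22). Of 17 genes of fatty acid synthesis, 7 fell and 3 rose (median -0.45), or 4 and 0 with the unmapped covariate. Thrsp, a lipogenic regulator responsive to thyroid hormone, fell from a median of 102.3 to 9.95 CPM, and Fasn, fatty acid synthase, from 786 to 455 CPM with overlap (-0.72, adjusted p = 0.0244). The call of Fasn was lost with the WT pairs summed (-0.83, adjusted p = 0.089). Of 24 genes of cholesterol synthesis and the LDL receptor, 8 fell and 0 rose (median -0.42), and 2 fell with the unmapped covariate. Dhcr7, which makes cholesterol from 7-dehydrocholesterol, was at 212, 331 and 401 CPM and then 59.7, 96.7 and 199 CPM.

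Hormone-linked and metal genes included some of the largest falls. Hsd3b5, a male-specific steroid dehydrogenase of liver that depends on pulsatile growth hormone, was at 8.80, 21.7 and 32.2 CPM at 8 h and 0, 0.246 and 0.759 CPM at 24 h (-6.15, SE 0.55, adjusted p = 3.05e-07). Elovl3, a fatty acid elongase with male-biased liver expression, fell by 3.99. Igfbp3, the main IGF carrier, went the other way, from 3.32, 3.96 and 6.46 to 0.767, 78.5 and 227 CPM, with 1 or more 24 h libraries below the 8 h range. Over the list of the growth hormone and IGF axis, 7 of 15 fell and 1 rose (median -0.46), or 4 and 1 with the unmapped covariate, and Igf1 itself was not called (-0.29, adjusted p = 0.261).

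Hamp, which encodes the iron hormone hepcidin, was at 18.4, 26.9 and 56.7 CPM at 8 h and 0.202, 0.988 and 1.81 CPM at 24 h, a 31.3-fold fall without overlap. Slc40a1, the iron exporter ferroportin, rose from 11.1, 15.8 and 22.4 to 35.1, 78.9 and 153 CPM. The metal-binding Mt1 was at 3783, 4994 and 9177 CPM and then 785, 1331 and 3573 CPM. Of 14 metal-handling genes 6 fell and 2 rose (median -0.17), or 3 and 1 with the unmapped covariate.

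**Figure D2:**
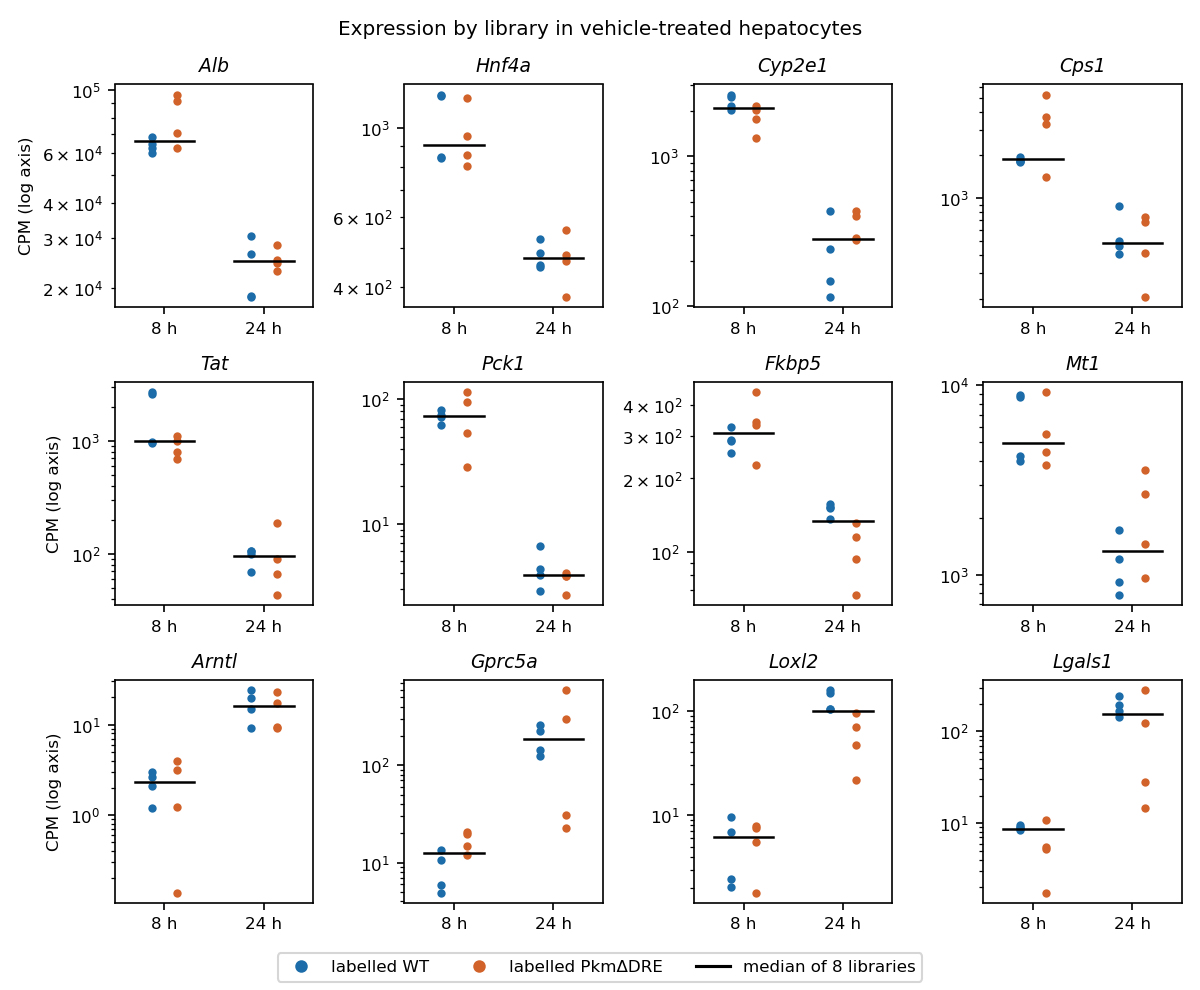
CPM on a log axis in each of the 16 vehicle libraries for 12 genes, with 1 point per library coloured by label and a line at the median of the 8 libraries. Alb, Cyp2e1, Tat and Pck1 were lower in every 24 h library than in any at 8 h, and Arntl, Loxl2, Lgals1 and Gprc5a were higher in every one. Pck1, Loxl2, Lgals1 and Gprc5a are among the largest changes, which were picked from genes without overlap.

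Cell cycle genes formed the list with the most rises. Of 27 tested, 23 rose and 1 fell, with a median of 2.05, and 13 rose with the unmapped covariate. Uhrf1, which couples maintenance DNA methylation to replication, is outside this list and was named for the size of its rise. It was at 0.404, 2.61 and 4.13 CPM at 8 h and 8.68, 65.7 and 111.6 CPM at 24 h (4.64, SE 0.49, adjusted p = 1.79e-06). Ccne2, the cyclin that drives entry to S phase, was at 0 to 0.566 CPM and then 0 to 9.30 CPM (3.65, SE 0.80). Top2a, the mitotic topoisomerase, had 33 counts in all at 8 h and 585 at 24 h, and its call was lost without PkmΔDRE 24 h replicate 3 (2.55, adjusted p = 0.109). Ccnd1, the cyclin of early G1, was at 1.18 to 7.38 CPM and then 1.66 to 20.4 CPM, and its call was lost without WT 8 h replicate 1 (1.36, adjusted p = 0.0509). Both calls were also lost with the WT pairs summed, Top2a at 3.21 (adjusted p = 0.0636) and Ccnd1 at 1.44 (adjusted p = 0.0892). Mki67, a proliferation marker, was at 0 to 1.55 CPM at 8 h and 0.117 to 6.96 CPM at 24 h. Its call was lost in 12 of 16 refits with 1 library fewer. It was also lost with the WT pairs summed (1.95, adjusted p = 0.145, edgeR quasi-likelihood). Rrm2, the 1 that fell, was at 37.9 to 78.8 CPM at 8 h and 7.76 to 50.97 CPM at 24 h. The call of Rrm2 was lost in 3 of these refits.

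Of 19 genes of p53 and its targets, 6 rose and 1 fell (median 0.47), or 1 and 1 with the unmapped covariate and 2 and 1 with the WT pairs summed. Ccng1, an early p53 target, was at 22.1, 38.4 and 46.9 CPM at 8 h and 52.5, 108.2 and 146 CPM at 24 h. Cdkn1a, the cell cycle inhibitor p21, was not called (-0.25, adjusted p = 0.227). Sesn1, another p53 target, was the 1 that fell, from 26.8, 43.2 and 67.6 to 2.16, 6.78 and 12.1 CPM.

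More cytoskeleton and matrix genes rose than fell. Of 32 cytoskeletal genes, 20 rose and 1 fell (median 1.43), or 20 and 3 without PkmΔDRE 24 h replicates 1 and 4, and of 24 genes of matrix and remodelling, 12 rose and 0 fell (median 1.44). With the unmapped covariate 11 and 2 rose. The summed CPM of the cytoskeletal list was 25885, 38043 and 43662 at 8 h and 12636, 35014 and 72156 at 24 h, so its median was not higher. That of the matrix list was 2363, 2468 and 3065 and then 1644, 4484 and 5065. Actg1, the 1 cytoskeletal gene that fell, was at 2135 to 3343 CPM and then 449 to 3061 CPM. Its call was lost with the WT pairs summed (-0.98, adjusted p = 0.0887, edgeR quasi-likelihood). Krt19, a keratin of bile duct and progenitor cells, was at 0, 0.307 and 0.812 CPM and then 0.426, 7.70 and 22.5 CPM. Lgals1, galectin-1, was at 1.75, 8.68 and 10.8 CPM at 8 h and 14.7, 155 and 280.3 CPM at 24 h (4.42, SE 0.49). Vim, the intermediate filament vimentin, was at 36.8 to 199 CPM and then 16.7 to 1063 CPM, so the times overlapped (2.35, SE 0.60, adjusted p = 0.00613). The call of Vim was lost with the WT pairs summed (1.96, adjusted p = 0.0565). Loxl2, a collagen cross-linking oxidase, was at 1.81, 6.19 and 9.52 CPM and then 21.8, 99.9 and 158 CPM. Cd44, the hyaluronan receptor, had medians of 3.41 and 44.1 CPM. The rises of Cd44, Vim and Krt19 were small or absent in PkmΔDRE 24 h replicates 1 and 2. These libraries held Cd44 at 1.34 and 4.99 CPM, Vim at 16.7 and 68.7 CPM and Krt19 at 0.863 and 0.426 CPM. The other 24 h libraries held at least 41.8 CPM of Cd44, 581 CPM of Vim and 5.01 CPM of Krt19. Loxl2, at 21.8 and 46.8 CPM, and Lgals1, at 28.0 and 14.7 CPM, were above their 8 h ranges in replicates 1 and 2. Both genes were picked from those without overlap. A fit without both replicates was not made. Fn1, fibronectin, was not called (0.35, adjusted p = 0.173).

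Of 13 targets of YAP and TEAD, which respond to cell spreading, 3 rose and 0 fell (median 0.77). Without PkmΔDRE 24 h replicates 1 and 4, 5 rose and 1 fell, and with the unmapped covariate 1 rose. Ankrd1, a common reporter of this pathway, was at 0, 1.03 and 1.57 CPM at 8 h and 0, 8.33 and 24.2 CPM at 24 h (3.64, SE 0.82). It was at 0 and 1.75 CPM in PkmΔDRE 24 h replicates 1 and 2 and at least 4.20 CPM in the other 24 h libraries. The matricellular target Ccn2 was not called (0.77, adjusted p = 0.0823).

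Among genes chosen by size alone, with no overlap between the times and a mean of at least 10 CPM at the higher time, the steepest rises included Bicc1, an RNA-binding regulator, at 0, 0.277 and 0.617 CPM and then 2.83, 10.3 and 27.5 CPM (5.32, SE 0.59). Its 8 h level rests on 36 counts over 8 libraries. Apln, the ligand apelin, rose from a median of 0.702 to 10.98 CPM and Gprc5a, an orphan receptor, from 12.7 to 185 CPM. The steepest falls beside Hsd3b5 and Hamp included Akr1c6, a hydroxysteroid dehydrogenase, which fell 27.7-fold from 151, 298 and 342 to 4.17, 9.30 and 14.1 CPM. Fabp1, the liver fatty acid binding protein, fell 16.6-fold. The innate immune sensors Nlrp6 and Nlrp12 fell by 4.46 and 4.32 on the log2 scale.

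**Figure D3:**
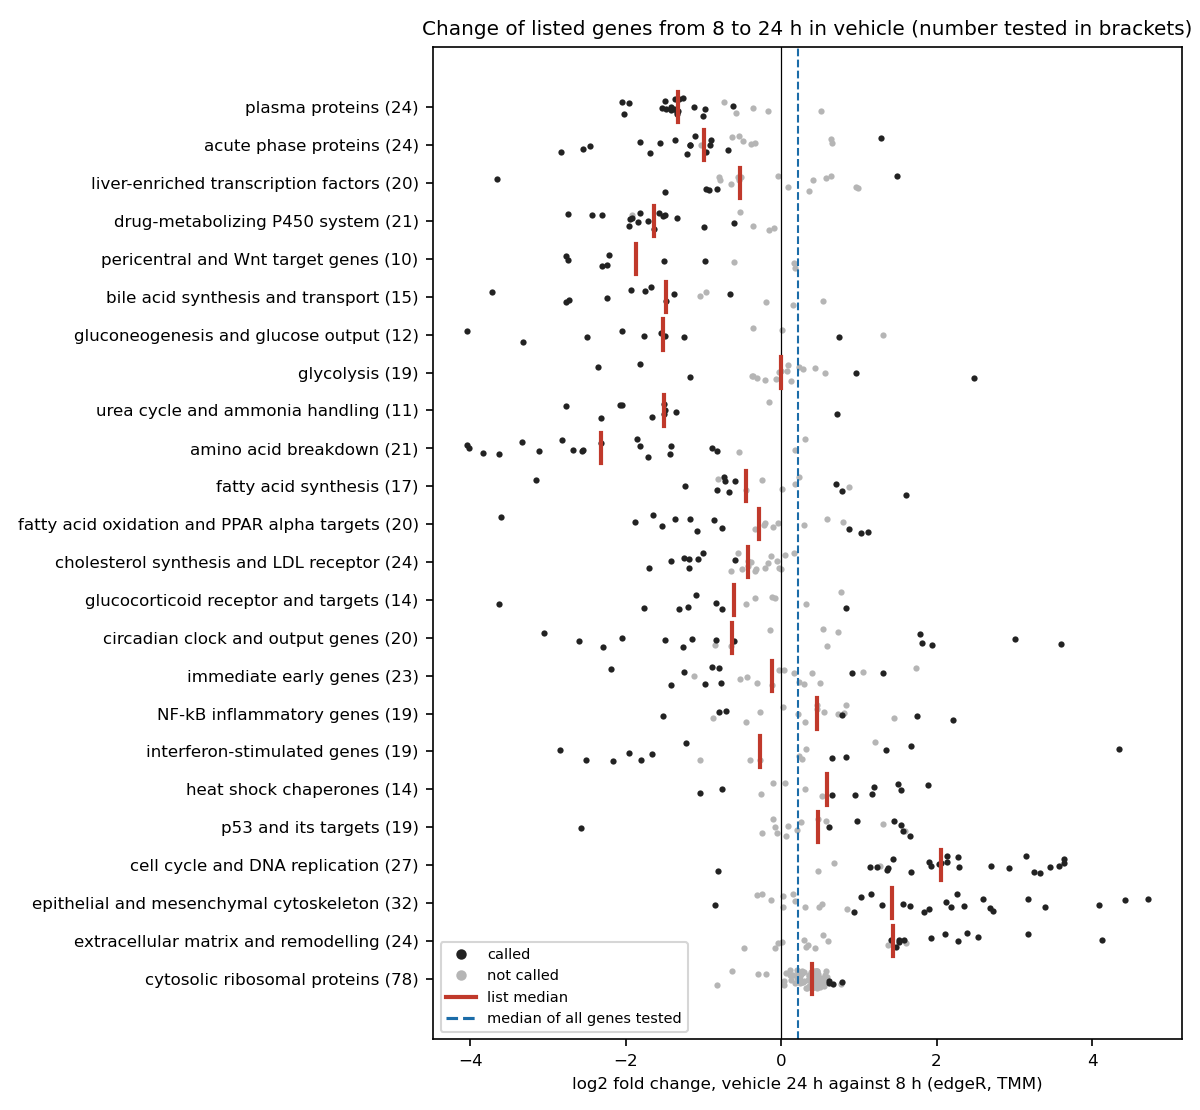
Log2 fold change of 24 h over 8 h for every tested member of the lists, with the number tested in brackets. Points are genes, dark where called and grey where not, and a red line marks the median of each list. Amino acid breakdown lies farthest below the median of all genes (0.22) and cell cycle genes farthest above it.

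Clock genes changed in both directions. In the circadian clock, BMAL1 (Arntl) with CLOCK or NPAS2 activates genes through E-box elements, and the PER and CRY proteins and the REV-ERB receptors (Nr1d1) repress in turn. Of 20 clock and output genes, 5 rose and 9 fell (median -0.63), and 3 and 4 with the unmapped covariate. Genes of this list outside the naming rule are also named here because all of its called members are given. Those that rose were the activators Npas2 (3.61), Arntl (3.01) and Clock (1.78), the activating receptor Rora (1.95) and the repressor Cry1 (1.82). Those that fell were Ciart (-3.05), Dbp (-2.60), Tef (-2.30), Nr1d1 (-2.05), Usp2 (-1.498), Per2 (-1.26), Cry2 (-1.14), Per1 (-0.84) and Bhlhe40 (-0.61).

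The promoters of 4 called members are shown because they carry the E-box, the element through which the activators act, and yet moved in different directions. Each runs 5′ to 3′ over 300 bases, from 250 before to 50 after the annotated start, from RefSeq on GRCm38.p6, a build other than the GRCm39 to which the reads were aligned. Capitals mark the E-box CACGTG, which reads the same on both strands. Ciart lies at chr3:95882179-95882478 on the minus strand, Tef at chr15:81802423-81802722 on the plus strand, Cry1 at chr10:85185005-85185304 on the minus strand and Per1 at chr11:69098699-69098998 on the plus strand.
Ciart: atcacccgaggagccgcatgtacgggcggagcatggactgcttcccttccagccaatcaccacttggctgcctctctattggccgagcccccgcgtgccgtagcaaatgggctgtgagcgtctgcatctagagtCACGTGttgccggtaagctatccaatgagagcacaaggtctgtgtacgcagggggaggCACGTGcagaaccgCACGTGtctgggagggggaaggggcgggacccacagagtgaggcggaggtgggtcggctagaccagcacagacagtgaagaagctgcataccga
Tef: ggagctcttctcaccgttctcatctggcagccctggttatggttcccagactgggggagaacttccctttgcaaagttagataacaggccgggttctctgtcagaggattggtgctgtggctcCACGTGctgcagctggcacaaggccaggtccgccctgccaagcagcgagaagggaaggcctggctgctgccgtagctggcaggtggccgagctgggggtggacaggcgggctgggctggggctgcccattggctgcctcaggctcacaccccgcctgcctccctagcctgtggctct
Cry1: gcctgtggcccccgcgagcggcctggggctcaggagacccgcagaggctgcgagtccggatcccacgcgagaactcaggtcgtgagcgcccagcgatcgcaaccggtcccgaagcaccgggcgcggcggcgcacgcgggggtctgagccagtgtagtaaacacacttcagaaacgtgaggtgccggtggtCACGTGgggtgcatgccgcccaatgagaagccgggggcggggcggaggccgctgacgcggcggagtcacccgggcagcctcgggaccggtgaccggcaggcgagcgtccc
Per1: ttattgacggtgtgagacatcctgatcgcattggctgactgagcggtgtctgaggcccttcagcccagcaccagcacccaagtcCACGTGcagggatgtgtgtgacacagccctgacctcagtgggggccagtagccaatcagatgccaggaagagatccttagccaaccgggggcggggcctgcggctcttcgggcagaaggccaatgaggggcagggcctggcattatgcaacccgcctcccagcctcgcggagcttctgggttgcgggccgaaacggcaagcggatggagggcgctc
The Ciart window holds 3 E-boxes and the others 1 each. The motif was found in 5 of the 17 list members with a promoter in the table and in 7.15% of all 32851 promoters. A match is a description of the letters and not a measured site. Ciart, Tef and Per1 fell and Cry1 rose.

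Arntl was at 0.139, 2.35 and 3.98 CPM at 8 h and 9.04, 16.2 and 23.9 CPM at 24 h, without overlap (adjusted p = 5.86e-05). Ciart, whose product represses BMAL1 activity, was at 3.65, 8.26 and 15.4 CPM and then 0.477, 0.737 and 1.79 CPM (adjusted p = 1.84e-05). The separation was complete in both, in opposite directions. Dbp, a direct clock output that is known for its wide daily swing, was low at both times, with medians of 1.47 and 0.316 CPM. The core repressor Per2 was at 12.9 to 32.7 CPM and then 3.16 to 17.9 CPM.

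The other vehicle times place these values in order. Median Arntl was 6.43, 4.06 and 2.35 CPM at 2, 4 and 8 h, then 9.51 at 12 h, 16.2 at 24 h and 10.3 to 12.98 from 48 to 120 h. Median Nr1d1 went from 217 CPM at 2 h to 37.9 at 8 h and 7.95 at 24 h and was 18.5 at 120 h. Median Ciart was 16.9 CPM at 2 h, 0.737 at 24 h and 0.589 to 1.42 from 48 to 120 h. Samples taken a day apart cannot show a daily rhythm. One PkmΔDRE library at 4 h held Loxl2 at 226 CPM, near the 96 h median of 245, while one at 96 h held it at 1.41 CPM, below the 4 h median of 3.43. Both enter only these time courses and 1 alternative fit. The labels give no clock time of plating or harvest.

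**Figure D4:**
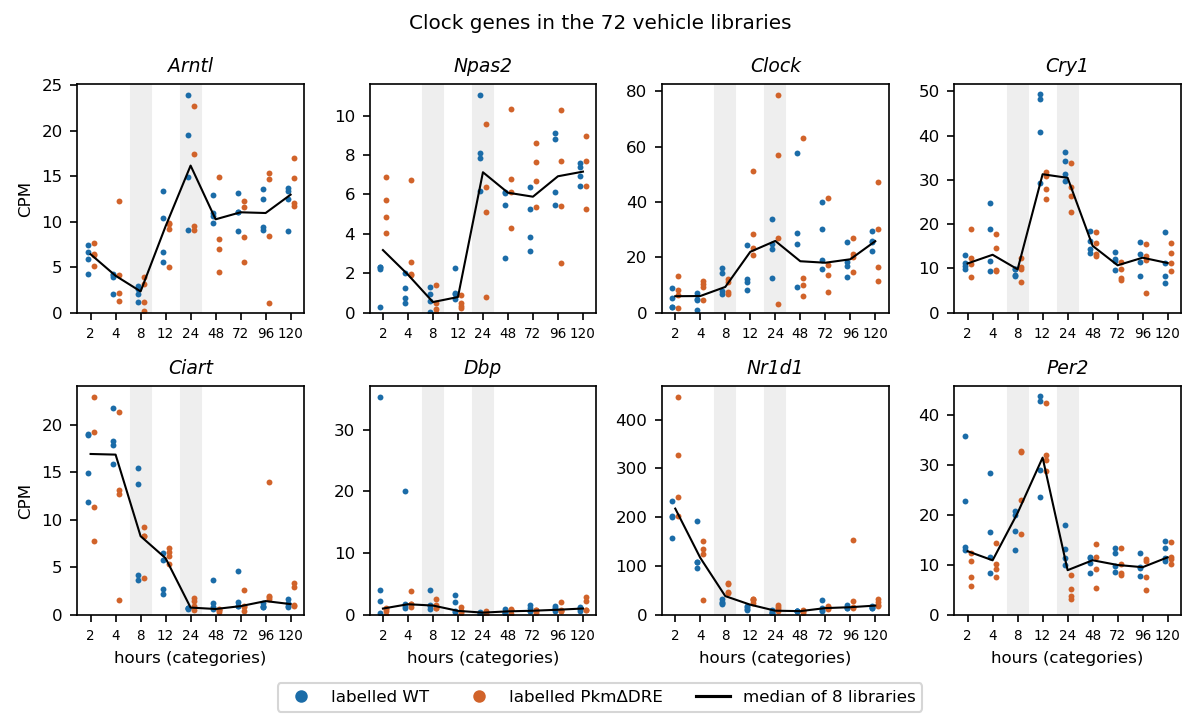
CPM of 8 clock genes in the 72 vehicle libraries at the 9 times, shown as equally spaced categories, with 1 point per library coloured by label, a line through the medians and 8 h and 24 h shaded. Arntl and Npas2 were lowest at 8 h and higher at 24 h, while Ciart and Nr1d1 were highest at 2 or 4 h.

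Dexamethasone was present at both times. Of 14 genes of the glucocorticoid receptor and its targets, 7 fell and 1 rose (median -0.61), or 4 and 0 with the unmapped covariate. Fkbp5, a chaperone that dampens the receptor, was at 226, 306 and 451 CPM at 8 h and 66.5, 133.6 and 156 CPM at 24 h, without overlap (-1.20, SE 0.18).

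Stress and inflammation lists were smaller or mixed. Of 23 immediate early genes, 7 fell and 2 rose (median -0.12), or 2 and 1 with the unmapped covariate. Atf3, a stress-induced factor, was at 78.1, 111.5 and 178 CPM and then 22.3, 34.4 and 76.6 CPM, and Fos was not called (-0.53, adjusted p = 0.248). Of 19 NF-kB inflammatory genes, 3 rose and 3 fell (median 0.46), or 6 and 3 without PkmΔDRE 24 h replicates 1 and 4 and 1 and 2 with the unmapped covariate. Ccl2, the monocyte attractant, was at 11.7, 21.1 and 29.6 CPM and then 4.12, 108.9 and 190.1 CPM (2.21, SE 0.46). It was at 4.12 and 10.3 CPM in PkmΔDRE 24 h replicates 1 and 2 and at least 80.6 CPM in the other 24 h libraries. Of 19 interferon-stimulated genes, 5 rose and 7 fell (median -0.27), or 1 and 3 with the unmapped covariate, with neighbours in opposite directions: Ifit3 was at 6.68, 24.2 and 76 CPM and then 1.18, 3.17 and 8.43 CPM, while Ifit2 was at 0, 0.212 and 0.405 CPM and then 0, 2.69 and 8.54 CPM.

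Of 14 heat shock chaperones, 7 rose and 2 fell (median 0.59), and 1 rose with the unmapped covariate and 3 with the WT pairs summed. Hsp90aa1, the inducible HSP90, was at 36.3 to 156 CPM at 8 h and 31.6 to 991 CPM at 24 h (1.89, SE 0.52, adjusted p = 0.00992). Hspa1b, an inducible HSP70 gene, fell by 1.05. Its near-identical copy Hspa1a was at 0 to 2.56 CPM at 8 h and 0.527 to 1.34 CPM at 24 h and was not called. Of 23 genes of the unfolded protein and integrated stress response, 2 rose and 3 fell (median -0.28), or 3 and 9 without PkmΔDRE 24 h replicates 1 and 4 and 2 and 0 with the unmapped covariate. Xbp1, a driver of secretory capacity, was at 355, 409 and 589.5 CPM and then 123.7, 197 and 306 CPM. Of 20 NRF2 regulators and targets, 2 rose and 4 fell (median 0.23), or 2 and 0 with the unmapped covariate. Srxn1, which repairs oxidised peroxiredoxins, fell from a median of 3114 to 762 CPM and Osgin1, an oxidative stress response gene, rose from 271 to 724 CPM. Srxn1 was still at 2548 and 2294 CPM in PkmΔDRE 24 h replicates 1 and 2, against at most 991 CPM in the other 24 h libraries. Hmox1, heme oxygenase and a further NRF2 target, was at 136.8, 227 and 798 CPM at 8 h and 80.1, 223 and 2752 CPM at 24 h and was not called (0.72, adjusted p = 0.589). PkmΔDRE 24 h replicates 1 and 2 held 2752 and 2086 CPM against at most 329.9 in the other 24 h libraries, and in the WT libraries alone Hmox1 fell (-1.72, adjusted p = 0.0281). Of the 4 AHR targets tested, 2 fell and 0 rose. Cyp1a1, the classical target, was not called and reached 54.6 CPM in WT 24 h replicate 4 against a median of 1.89 CPM.

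Few ribosomal protein and proteasome genes were called. Of 78 cytosolic ribosomal protein genes, 4 rose and 0 fell, with a median of 0.39. Without PkmΔDRE 24 h replicates 1 and 4, 0 rose and 1 fell and the median was -0.02. Of 38 proteasome subunits 3 rose and 0 fell (median 0.13), and 3 rose and 3 fell without those libraries. Of 11 genes of the mitochondrial genome 2 fell (median -0.50), and 5 fell with DESeq2's size factors, 4 with the WT pairs summed and 6 with TCDD. The 2 were mt-Co2 and mt-Co3, at no more than 6.70 and 12.2 CPM in any library. The list summed to 32064 to 52045 CPM at 8 h and 17074 to 34375 CPM at 24 h, so these 2 genes are a small part of it.

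Marker lists checked the labelled cell type. The 10 hepatocyte markers summed to 81904 to 121392 CPM at 8 h and 27687 to 38677 CPM at 24 h, so they were abundant at both times, and 9 of 10 fell (median -1.49). The Kupffer cell and macrophage markers summed to 154 to 302 CPM and then 67.7 to 351 CPM, and of 12 tested 5 fell. Timd4, a marker of resident Kupffer cells, was at 2.18, 4.72 and 12.1 CPM and then 0, 0.318 and 0.525 CPM, without overlap. Endothelial markers (10 tested, 4 rose and 1 fell) summed to 155 to 509 and 155 to 859 CPM. Stellate cell and fibroblast markers (8 tested, 3 rose and 2 fell, or 1 and 2 without PkmΔDRE 24 h replicates 1 and 4) summed to 15.6 to 52.9 and 12.1 to 27.5 CPM.

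Cholangiocyte markers, which overlap the cytoskeletal list in Krt19 and Krt7, had 5 of 6 rise, or 1 with the unmapped covariate. They summed to 24.4, 43.6 and 54.8 CPM at 8 h and 25.5, 108.5 and 179 CPM at 24 h. The part of such cells in the rises above was not tested. Lymphocyte markers summed to at most 1.46 CPM in any library, with 4 of 10 at 0 in all, and 3 of 6 neutrophil markers were at 0 in all. Erythroid markers summed to 96.96, 112.8 and 209 CPM at 8 h and 23.7, 31.3 and 90.7 CPM at 24 h, with 3 of 7 at 0 in all. Nearly all of this was Alas2, the heme synthesis enzyme of red cell precursors, which was at 95.9, 111.7 and 208 CPM and then 22.99, 30.4 and 89.01 CPM, without overlap (-1.68, SE 0.28), and its call was lost with the unmapped covariate. Of the 5 progenitor and fetal liver genes tested, 3 rose, or 0 with the unmapped covariate. Afp, the fetal counterpart of albumin, was at 2.02, 2.88 and 8.76 CPM and then 5.44, 8.00 and 13.4 CPM (1.35, SE 0.33). The others that rose, Sox9 and Spp1, are also among the cholangiocyte markers. Their calls were lost with the WT pairs summed (adjusted p = 0.291 and 0.114, edgeR quasi-likelihood). The call of Sox9 was also lost in 14 of 16 refits with 1 library fewer.

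Both labels were then examined apart. In the WT libraries 4350 of 12639 genes were called (34.4%), 2239 higher and 2111 lower, and in the PkmΔDRE libraries 551 of 12425 (4.43%), 19.6% of them higher. The median standard error was 0.25 under WT and 0.46 under PkmΔDRE. The WT fit counted the libraries of the close WT pairs as independent, and their part in its smaller error was not tested. Across the 12137 genes tested under both, which are not independent replicates, the log2 fold changes of the labels correlated with r = 0.72, and 493 genes were called the same way under both and 0 in opposite directions. Pck1 changed by -4.07 and -4.37 and Arntl by 2.87 and 2.73 under WT and PkmΔDRE. The test of the difference itself, label by time, called 0 of 13614 genes (0.0%) with edgeR. At an unadjusted p under 0.05 there were 711 genes (5.22%), and DESeq2 called 2.

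The same interval was compared with TCDD present throughout. In the 16 TCDD libraries 4106 of 13619 genes were called (30.1%), 2201 higher and 1905 lower, and 3905 to 4538 without any 1 TCDD library. Of 4030 vehicle calls tested there, 3751 had the same sign, 2415 were called the same way and 0 the other way. These are 59.9% of the vehicle calls and 60.3% of the 4008 TCDD calls tested in vehicle. The comparisons share no library. Plasma proteins fell for 22 of 24 genes and cell cycle genes rose for 21 of 27 with TCDD, and of the ribosomal protein genes 64 of 78 rose, against 4 in vehicle, although no ribosomal protein gene was called for the difference between treatments.

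**Figure D5:**
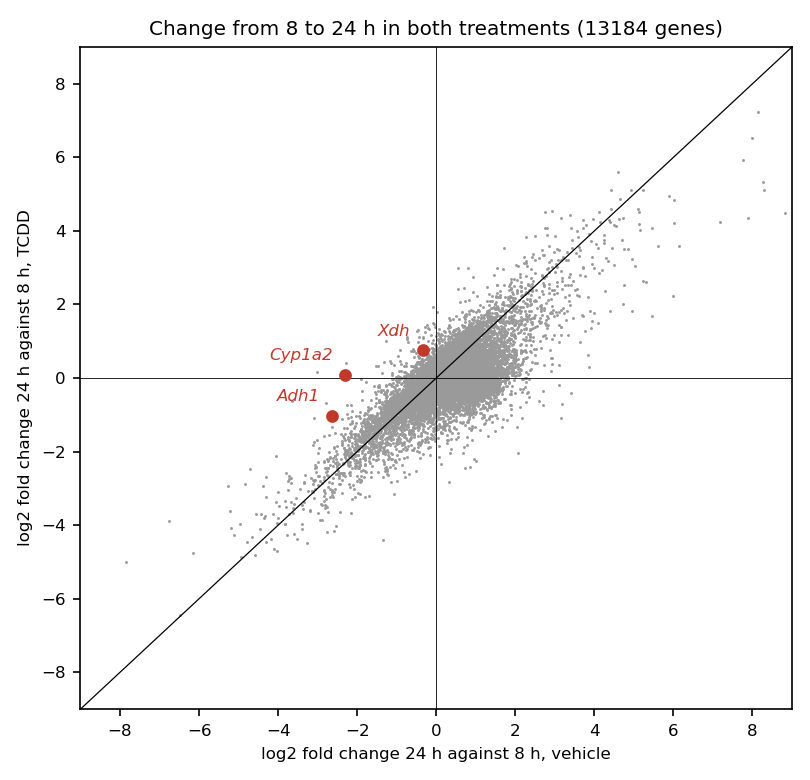
Log2 fold change of 24 h over 8 h in vehicle (horizontal) and TCDD (vertical) for the 13184 genes tested in both, with 1 point per gene. Most points lie along the diagonal, and the 3 genes called for treatment by time are named.

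The test of the difference, treatment by time, called 3 of 14669 genes (0.0205%). At an unadjusted p under 0.05 there were 2310 genes, and DESeq2 called 27. Cyp1a2, a hepatocyte P450 and AHR target, was at 251, 328 and 615 CPM at 8 h and 32.6, 60.6 and 140.7 CPM at 24 h in vehicle, and at 494, 1175 and 1778 and then 781, 1219 and 1880 CPM with TCDD. It thus fell by 2.30 in vehicle without overlap and changed by 0.08 with TCDD, a difference of 2.50 (SE 0.41, adjusted p = 0.0037, edgeR quasi-likelihood). Adh1, the liver alcohol dehydrogenase, was at 592, 716 and 1227 CPM and then 60.1, 111.8 and 187 CPM in vehicle, and at 453, 584 and 884 and then 179, 286 and 428 CPM with TCDD (difference 1.72, SE 0.28, adjusted p = 0.0037). Xdh, xanthine dehydrogenase, was at 199, 205 and 209.6 CPM and then 100.2, 144.1 and 218 CPM in vehicle (-0.33, adjusted p = 0.0522) and rose with TCDD from a median of 279 to 461 CPM (difference 1.21, SE 0.20). With the share of reads on no gene as a covariate 0 genes were called, and without PkmΔDRE 24 h replicate 4 there were 52. Leaving out its replicate 1 gave 9 genes, PkmΔDRE 8 h replicate 2 gave 6 and WT 24 h replicate 3 gave 5. Among the TCDD libraries, left out in turn as an alternative chosen after seeing the data, PkmΔDRE 8 h replicate 1 gave 8, and PkmΔDRE 8 h replicate 2 and PkmΔDRE 24 h replicates 2 and 4 gave 5 each. WT TCDD 8 h replicate 1 stood apart, with 23.6% of reads unmapped and 37.1% of counts on the 10 most abundant genes against 17.7 to 20.2% in the others of its group, and without it 3 genes were called.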

How the data were processed

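RNA was sequenced as paired ends without strand information. Per the labels the authors used FastQC 0.11.3, Trimmomatic 0.39, STAR 2.7 and DESeq2, with alignment to GRCm39. The deposited files hold counts per gene as STAR writes them, and the unstranded count column was used. Only uniquely mapped reads are counted, so genes with near-identical copies (ribosomal proteins, Hspa1a and Hspa1b, Mt2, Fdps, mitochondrial genes) are uncertain. Antisense pairs cannot be told apart. Symbols were matched for 52083 of 55359 gene IDs. Rows for unmapped, multimapped, no-gene (3.52 to 12.2% of reads) and ambiguous reads stayed out of library sizes.

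Counts were tested with edgeR 4.0.16 (R 4.3.3; robust quasi-likelihood, TMM, filterByExpr with a minimum count of 10 and total of 15), time with label as covariate, and Benjamini-Hochberg adjustment over all genes tested; scripts were tested on simulated data. CPM were scaled with TMM over 88 libraries. Named genes were the 12 largest rises and 12 largest falls among called genes without overlap and with a mean of at least 10 CPM, up to 2 rises and 2 falls per list (all where 5 or fewer were called), set anchors, the extreme interaction genes and Pkm. The members and lists were chosen with earlier results of these data known. Alternatives were DESeq2 1.42.0, its size factors, no filter or a minimum of 50, a fold of 2, covariates, a surrogate variable (sva 3.50.0), a GC trend, each label alone, the closest WT pairs summed and leaving out each library. Depth was 16011765 to 30719161 counts per library, and no libraries were duplicates in their counts, although some WT pairs were close. Some genes are not reported here.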

Additional observations from a re-analysis of the deposited data

Results flagged for a closer look

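The change from 8 to 24 h differed between TCDD and vehicle for Cyp1a2 by 2.50, for Adh1 by 1.72 and for Xdh by 1.21 on the log2 scale (edgeR quasi-likelihood, treatment by time).

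A library stood far from the other 7 of its time in 11 of the values examined (56 genes and 7 library measures at each time), where chance gives about 1 in 20 groups. At 8 h, PkmΔDRE replicate 4 had the lowest Cyp3a11 (351 CPM) and the highest Cdkn1a (566 CPM). At 24 h, PkmΔDRE replicate 4 had the highest Apln (57.8 CPM), Trp53i11 (43.2 CPM) and Fasn (954 CPM), replicate 1 the highest Tat (189 CPM), and replicate 3 the highest Mki67 (6.96 CPM) and the highest share of reads on no gene (12.2%). WT replicate 1 had the highest Pck1 (6.69 CPM). WT replicate 4 had the highest Cyp1a1 (54.6 CPM) and the lowest unmapped share (5.30%).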

How the results depend on the processing

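The main normalization took PkmΔDRE 24 h replicate 4 as its reference library, and took replicate 1 in the fits without that library or without any 8 h library, where the median of all genes was -0.03 to 0.02. Against the mean of the 16 libraries, an alternative chosen after seeing the data, 3728 genes were called, 52.2% of them higher, with a median of 0.11. The share higher was 53.2% with DESeq2 (4573 called), 52.4% with the GC trend removed (3648) and 41.8% with the unmapped covariate. The fits without 1 library called 3175 to 4833 genes. As a percent of the 55359 genes in the files, 4.68% were called higher and 2.72% lower, and without 1 library 2.41 to 5.38% and 2.41 to 4.48%. In the PkmΔDRE libraries alone 551 genes were called (0.195% higher and 0.800% lower) and with the unmapped covariate 1035 (0.782% and 1.09%). With the closest WT pairs summed 2391 were called (1.62% higher). Those lower were 4.61% without PkmΔDRE 24 h replicates 1 and 4, chosen after seeing the data, and 1.79% at a fold change of at least 2. Label by time gave 2 genes with DESeq2, 46 with no filter on low counts and 0 without any 1 library. Treatment by time gave 27 with DESeq2, 0 with the no-gene share and 3 to 52 without 1 of its 32 libraries.

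Of 149 named calls, 34 were lost in 1 or more of the 16 fits without 1 library, 75 with the unmapped covariate and 38 with the WT pairs summed. The sign turned for Vnn1 (-0.079) and Fn1 (-0.12) in the PkmΔDRE libraries alone and for Hmox1 (-1.72) in the WT libraries alone. Ddit3 was at -0.25 in the WT libraries alone, -0.074 with the GC trend removed and -0.054 to 0.37 without 1 library. The causes were not tested. No paired analysis was possible because the labels give no replicate numbers, and those used here follow accession order.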
